A study of Mus musculus with 3 samples.

Results

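Complement genes and clusterin were followed in testis cells that were driven towards the Leydig fate in culture. The genes were chosen by name, as C3, C4b, C1s1, C1ra, Cfb, Cfd, Serping1, Clu and Lbp, 9 genes against a merged count table of 24698 genes. Of these, 8 have a row in that table, and Cfd (complement factor D) is not listed in the tables used here and has no value. The level of each gene was read per day of culture and, on day 14, in cells above and below a level of the steroidogenic enzymes Cyp11a1 and Hsd3b1.

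Single cells were profiled by Drop-seq, in which cells and barcoded beads meet in droplets and each captured transcript is counted once through its unique molecular identifier (UMI). Sca1+/cKit- cells sorted from testes of C57BL/6 males aged 8 to 12 weeks were plated at 100000 per well, recovered for 18 h in serum, and expanded for 3 days with PDGFAA, PDGFBB and FGF2 (10 ng/ml each) and the Smoothened agonist SAG (0.5 µM). The differentiation medium kept these factors and added LiCl2 (5 mM) and the Notch inhibitor DAPT (10 µM). Day 4 (2980 cells, 12677110 UMIs), day 7 (2171 cells, 11627440 UMIs) and day 14 (973 cells, 5324400 UMIs) had 1 library each, with median depths of 2886, 3285 and 3272 UMIs per cell. All 3 days shared the sort and the expansion factors, days 7 and 14 had passed 3 and 10 days in the differentiation medium, and the number of mice behind each library was not given in the sources used here. With 1 library per day, sequenced in the same batch per the study's methods, there is no replicate and no test, so a difference between days cannot be told apart from a difference between libraries, and every interval below covers counting error only (exact, 95%). No cell barcode was shared between the days among the cells used.

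Complement is a cascade of plasma proteins that marks surfaces for clearance. The C1 complex, whose proteases are C1r and C1s, cleaves C4 and C2 to form the enzyme that splits C3, while factors B and D act in the alternative route to the same step, and the late components then assemble a pore in the membrane. Serping1 encodes the C1 inhibitor, which blocks C1r and C1s, clusterin (Clu) is a secreted chaperone that keeps the late complex out of membranes and is abundant in the male reproductive tract, and Lbp encodes the plasma protein that hands lipopolysaccharide to its receptor.

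Levels are UMIs per 1000000 UMIs summed over the cells of a group (CPM). Drop-seq counts tags near the 3′ end of a transcript, so a level is compared between groups for 1 gene and not between genes. A gene was called higher or lower where log2(CPM + 1) differed by at least 2-fold and the mean of both groups was at least 10 CPM.

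The positions of the genes fall into few places of the GRCm38 genome (GENCODE M21). C1ra (chromosome 6, 124512405 to 124523443, plus strand) lies beside C1s1 (chromosome 6, 124530345 to 124542359, minus strand). C4b (chromosome 17, 34728380 to 34743882, minus strand) and Cfb (chromosome 17, 34856374 to 34862518, minus strand) share a stretch with C2 (34862604 to 34898265), and C3 is farther along the same chromosome (57203970 to 57228136, minus strand). Serping1 (84765387 to 84775444, minus strand) and Lbp (158306493 to 158332852, plus strand) are on chromosome 2, and Clu (65968483 to 65981547, plus strand) is on chromosome 14. All are protein-coding genes whose whole span is given, exons and introns included.

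The mouse genome carries near-identical copies of 3 of these genes, between which the counting could split reads. C4a, the copy of C4b, had 1, 3 and 2 UMIs on days 4, 7 and 14. C1rb, the copy of C1ra, had 2, 0 and 6 UMIs, and C1s2, the copy of C1s1, had 3, 0 and 1 UMIs. All 3 copies were thus near 0, and how reads were shared within each pair is uncertain.

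Promoter sequences were given for 4 of the 9 genes (RefSeq, GRCm38.p6). The 2 printed here are the 250 bases before the start of C1s1 (chr6:124542360-124542609, minus strand) and of C3 (chr17:57228137-57228386, minus strand), shown because both genes were lower in the steroid-high than in the steroid-low cells of day 14 and because both windows hold the letters bound by C/EBP factors, known regulators of acute-phase genes. Capitals mark these letters, TTGCNNAAT on either strand.
C1s1: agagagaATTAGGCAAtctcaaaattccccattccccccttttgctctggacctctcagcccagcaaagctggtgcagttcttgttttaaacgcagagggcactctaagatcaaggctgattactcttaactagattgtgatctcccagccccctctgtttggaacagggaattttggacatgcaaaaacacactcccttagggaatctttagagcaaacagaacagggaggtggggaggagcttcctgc
C3: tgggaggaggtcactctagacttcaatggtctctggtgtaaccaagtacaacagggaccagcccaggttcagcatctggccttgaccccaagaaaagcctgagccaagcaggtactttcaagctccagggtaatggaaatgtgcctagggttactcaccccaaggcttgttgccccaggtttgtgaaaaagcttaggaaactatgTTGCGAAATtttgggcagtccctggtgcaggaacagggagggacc
The match in C3 lay 45 to 37 bases before the start, on the strand of the gene, and the match in C1s1 lay 243 to 235 bases before the start, on the opposite strand. The same letters were in 2.13% of 32536 promoters of this length. RefSeq gives C1s1 another start, inside the gene span, whose window does not reach back to the match. The windows of C1ra and Cfd held no match to these letters, where that of C1ra lies mostly within the gene span given above. The 4 genes held none in these windows to the letters searched for a TATA box (TATAAA, 12.3% of promoters), STAT factors (TTCNNNGAA, 7.04%), IRF factors (GAAA, any 2 bases and GAAA again, 2.98%), NF-kB (GGGA, any base and TTTCC, 0.360%), AP-1 (TGANTCA, 6.73%) or NR5A1 (CAAGGTCA, 1.33%). A match is a run of letters and not a measured binding site. The 2 printed windows were picked for the match and for the lower level, so no link between the 2 is read. C1ra was also lower in steroid-high cells.

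The proteases of the C1 complex were present on every day and stayed within 2-fold between days. C1s1 was at 142 CPM on day 4 (135–149), 206 on day 7 (197–214) and 174 on day 14 (163–185). Its level was thus highest on day 7, with intervals that do not overlap between any of the days, and the ratio of day 7 to day 4 was 1.45 (1.36–1.54). C1ra was at 70.0 CPM on day 4 (65.5–74.8), 71.3 on day 7 (66.5–76.3) and 87.3 on day 14 (79.6–95.6). The first 2 of these did not differ beyond their counting intervals, and the ratio of day 14 to day 7 was 1.22.

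The components C4b and C3 were scarce on days 4 and 7 and higher on day 14. C4b, which encodes the complement component cleaved by C1s, was at 7.73 CPM on day 4 (6.28–9.42), 7.65 on day 7 (6.15–9.42) and 19.9 on day 14 (16.3–24.1). C3, on which all routes converge, was at 14.4 CPM on day 4 (12.3–16.6), 13.4 on day 7 (11.4–15.7) and 31.4 on day 14 (26.8–36.5). For both genes days 4 and 7 overlapped and day 14 stood above them. The ratio of day 14 to day 7 was 2.60 for C4b (1.94–3.49) and 2.34 for C3 (1.87–2.93), so both lower bounds lie under 2-fold. With a pseudocount of 10 CPM in place of 1, neither gene reached 2-fold (log2 differences 0.76 and 0.82).

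Cfb, the protease precursor of the alternative route, was close to the limit of detection. Its UMIs numbered 14, 4 and 1 on days 4, 7 and 14, or 1.10 (0.604–1.85), 0.344 (0.0937–0.881) and 0.188 CPM (0.00476–1.05). Day 4 overlapped with both other days, and Cfb passed no filter on low levels in any comparison.

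Serping1 was lowest on day 7, the day on which its target C1s1 was highest. It was at 251 CPM on day 4 (243–260), 161 on day 7 (154–168) and 235 on day 14 (222–249). The day 7 level was 0.640 of that on day 4 (0.604–0.678), and day 14 stood 1.46 times above day 7 (1.36–1.57). None of these differences reached 2-fold.

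Clu was the only 1 of the 6 genes that passed the filter to be 2-fold apart between days 4 and 7. It was at 82.6 CPM on day 4 (77.7–87.7), 479 on day 7 (467–492) and 612 on day 14 (591–633). Day 7 was 5.80 times day 4 (5.43–6.20), and the further step to day 14 was small, at 1.28 times day 7 (1.22–1.33). On day 4 a few cells held most of it, since the 10% of cells with the most Clu UMIs had 79.9% of them, against 58.2% on day 7 and 57.4% on day 14. A single cell of day 7 held up to 117 Clu UMIs.

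Lbp showed the largest ratio of the 8 genes, and it came late. It was at 8.83 CPM on day 4 (7.27–10.6), 12.6 on day 7 (10.6–14.8) and 100 on day 14 (92.1–109). Day 14 was 8.00 times day 7 (6.65–9.68) and 11.4 times day 4 (9.26–14.1), whereas day 7 was only 1.42 times day 4 (1.10–1.83). Clu and Lbp thus parted from day 4 at different times, Clu by day 7 and Lbp between days 7 and 14.

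**Figure D1:**
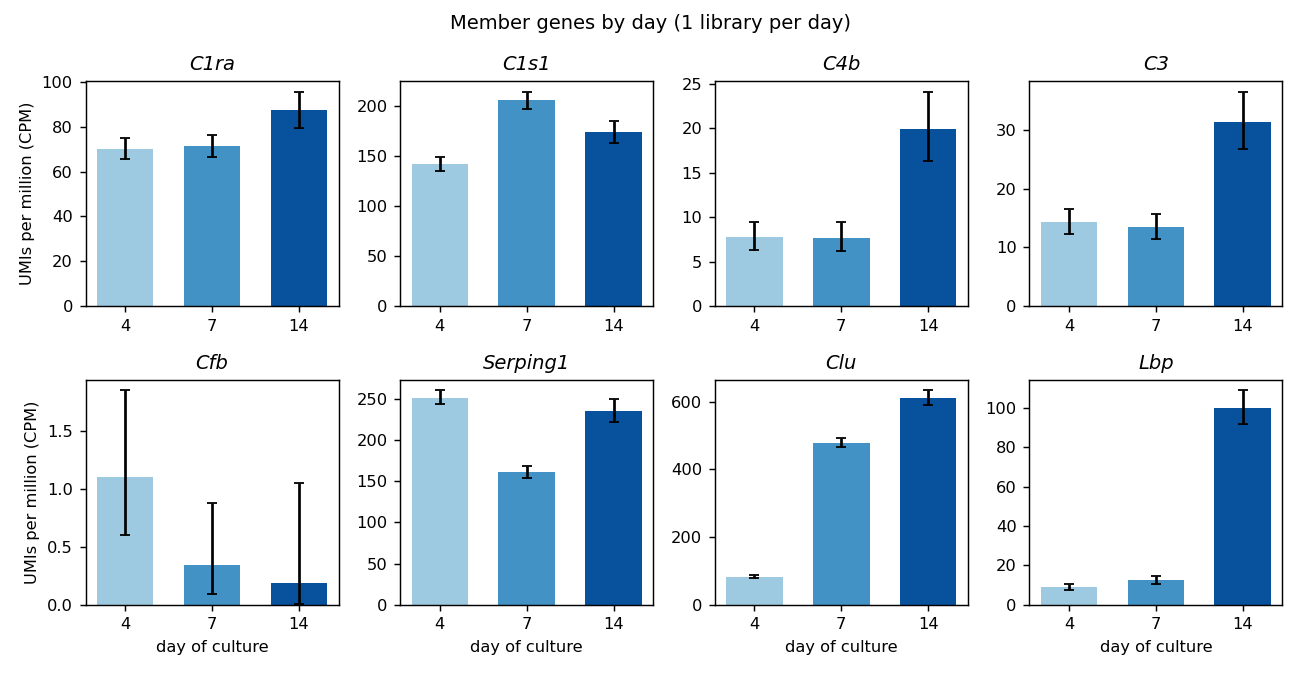
Level of the 8 listed genes by day of culture, in UMIs per 1000000 UMIs (CPM, each panel with its own axis from 0). Bars are 1 library each and error bars are exact Poisson 95% intervals, with Clu already high on day 7 (479 CPM), Lbp high only on day 14 (100 CPM) and Serping1 lowest on day 7 (161 CPM).

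Counted together, the day 7 cells had 1 gene (Clu) of the 6 that passed the filter at least 2-fold higher than day 4 and 0 lower, where 1.61% of 8086 genes were higher and 2.07% lower. Day 14 against day 7 had 3 of 7 higher (C3, C4b and Lbp) and 0 lower, beside 8.85% and 13.0% of 8227 genes. Day 14 against day 4 had 4 of 7 higher (C3, C4b, Clu and Lbp) and 0 lower, beside 11.8% and 14.9% of 8139 genes. The 3 comparisons share libraries. Median log2 differences of the genes that passed were 0.24, 0.55 and 1.08, beside 0.07, -0.17 and -0.12 over all genes tested. C4b passed the filter only through day 14, where it is high. Against day 4 so did Lbp, which was at 8.83 CPM on day 4. The counts and medians that hold these genes are therefore not read as a result.

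Other cells and states moved between the days as well. Summed levels of 9 Leydig markers not used to split cells were 391, 551 and 5190.3 CPM on days 4, 7 and 14, those of 5 proliferation markers 515, 493 and 86.0, and those of 8 fibroblast and myofibroblast markers 10578, 9815.7 and 8936.2. Within the last list 5 of 8 were at least 2-fold lower on day 14 than on day 7, beside 13.0% of 8227 genes. The median log2 difference of the 8 was -2.21. Acta2, for example, was at 2830.7 and 97.1 CPM on days 7 and 14, whereas Col3a1, the bulk of the sum, was at 3665.0 and 7201.6. Germ cell markers summed to 137, 24.3 and 49.2 CPM, and without cells holding a UMI of any of the 7 germ cell markers the log2 difference of C3 fell below 2-fold (0.93 for day 14 against day 7 and 0.86 against day 4). Prm1 of this list had 98 UMIs in 92 cells on day 7 and 96 in 89 on day 14. The cells left out thus need not be germ cells, and this fall is not read as an effect of germ cells. The 12 macrophage markers summed to 13.3, 30.3 and 245 CPM, of which Lyz2 alone gave 4.10, 19.4 and 200, while C1qa had 0, 0 and 1 UMIs and Adgre1 2, 0 and 8. Without the 36, 35 and 15 cells with a UMI of Ptprc, Adgre1, Csf1r, Fcer1g or Tyrobp the same genes were called (log2 differences of 1.26 for C3, 1.44 for C4b and 2.93 for Lbp for day 14 against day 7). Sertoli markers summed to 972, 1224.7 and 4044.4 CPM, of which Ctsl, a protease gene of many cell types, gave 903, 1156.9 and 2766.7 and Defb19 12.2, 15.6 and 1224.2, while Sox9 was at 27.4, 31.7 and 13.0 CPM and Amh had 0 UMIs on all days and Fshr was not listed. Endothelial markers summed to 88.3, 119 and 35.9 CPM, of which Cdh5 gave 77.7, 111 and 22.3. Egfl7 was at 6.70, 5.33 and 13.3 CPM, and Pecam1 had 25, 26 and 0 UMIs. Adipocyte markers summed to 103, 31.0 and 36.6 CPM, of which Lpl gave 99.2, 26.7 and 22.7. Plin1 was at 1.26, 1.38 and 11.1 CPM, and Adipoq had 2, 1 and 0 UMIs. The part of the germ cell, Sertoli, endothelial and adipocyte markers and of proliferation in the differences between days was not tested, beyond the removal of cells with a germ cell marker UMI.

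A summed level mixes the share of cells that carry a transcript with the amount per cell, so shares were also counted after each cell was thinned to 1500 UMIs, which kept 2227, 1742 and 794 cells. A Clu UMI was seen in 8.67% of cells on day 4 (7.53–9.91), 36.7% on day 7 (34.5–39.1) and 44.5% on day 14 (41.0–48.0). Without thinning the shares were 17.0, 54.9 and 60.9%, in the same order. An Lbp UMI was seen in 1.39% (0.948–1.97), 1.66% (1.12–2.38) and 12.2% of cells (10.0–14.7), which is level between the first 2 days and higher on day 14.

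The share for Serping1 was 29.9% on day 4 (28.0–31.9), 20.6% on day 7 (18.7–22.6) and 24.6% on day 14 (21.6–27.7). It was lowest on day 7, as its level was. For C1s1 the shares were 18.5, 25.2 and 25.1%, for C1ra 9.21, 11.3 and 13.0%, for C3 2.07, 1.66 and 3.78%, and for C4b 1.30, 0.861 and 3.53%. Unthinned, they were 50.3, 36.6 and 45.9% for Serping1, 36.0, 48.0 and 45.5% for C1s1 and 22.2, 26.3 and 31.9% for C1ra. The remaining unthinned shares were 4.60, 4.74 and 9.66% for C3, 2.89, 2.90 and 7.71% for C4b and 3.46, 4.70 and 28.3% for Lbp. No cell type of this culture is known to lack all of these transcripts, so the share that free RNA gives in droplets was not measured.

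Within day 14 the cells were split by the summed Cyp11a1 and Hsd3b1 count, 2 enzymes of steroid synthesis, at 10 per 10000 UMIs. This gave 418 steroid-high cells (43.0%, exact Clopper-Pearson 39.8–46.1; median depth 3603 UMIs) and 555 steroid-low cells (median depth 3063 UMIs), of which 324 had no UMI of either enzyme. The split is a range and not a cell type, and 149 cells lay between 5 and 20 per 10000, 75 below the limit and 74 above. Of the 9 Leydig markers outside the split, 8 were at least 2-fold higher in steroid-high cells, beside 2.71% of 7900 genes. Insl3 was at 2902.1 against 716 CPM and Lhcgr, the receptor for luteinizing hormone, at 75.6 against 3.34 CPM. Lhcgr, Hsd17b3 (23.2 against 2.97) and Hsd3b6 (19.4, from 51 UMIs in 4 cells, against 3.34) passed the filter only through the steroid-high cells, where they are high. The count is therefore not read as a result.

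Across this split Clu was higher in steroid-high cells and Serping1, C3, C1s1, C1ra and Lbp were lower, while C4b did not differ beyond its counting interval. At 2-fold, 1 of 7 was higher (Clu) and 2 were lower (C3 and Serping1), where 2.71% of 7900 genes were higher and 4.63% lower. The median log2 difference of the 7 was -0.82, beside -0.04 over all genes tested.

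Serping1 was at 331 CPM in steroid-low cells (310–354) and 137 in steroid-high cells (124–152), a ratio of high to low of 0.415 (0.367–0.470). Its targets were lower in the same cells by less. C1s1 was at 221 CPM (204–240) against 125 (111–139), at a ratio of 0.563 (0.490–0.645), and C1ra at 104 CPM (92.6–117) against 69.9 (60.2–80.7), at a ratio of 0.669 (0.553–0.809).

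C3 was at 43.5 CPM in steroid-low cells (36.0–52.1) and 19.0 in steroid-high cells (14.1–25), a ratio of 0.437 (0.307–0.613) resting on 117 and 50 UMIs. C4b was at 20.4 CPM (15.4–26.6) against 19.4 (14.4–25.5), at a ratio of 0.948 (0.635–1.41), so that neither a lower nor a higher level was detectable at this depth. The C4b value also moved with the setting, with a log2 difference of -0.07 as given, 0.62 with thinned cells, 0.10 with the split at 20 per 10000 and -0.92 with the split at 50, where C3 was at -2.63. Under the stricter cell filter (800 genes and 5% mitochondrial UMIs) C3 was just short of 2-fold, with a log2 difference of -0.99.

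Clu was at 384 CPM in steroid-low cells (361–408) and 844 in steroid-high cells (810–880), a ratio of 2.20 (2.04–2.37). This is close to the 2-fold limit, and with the split at 20 or 50 per 10000 or by Star plus Cyp17a1 the log2 difference was 0.96, 0.87 and 0.92, all higher in steroid-high cells but under 2-fold. Lbp was at 132 CPM (118–146) against 68.7 (59.1–79.5), a ratio of 0.523 (0.435–0.627), or a log2 difference of -0.93. It was -1.05 with equal weight per cell, past 2-fold, and -0.63 and -0.35 with the split at 20 and 50 per 10000. Cfb had 1 UMI in steroid-low and 0 in steroid-high cells, where 3 counts would be 1.14 CPM, and no ratio is given.

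**Figure D2:**
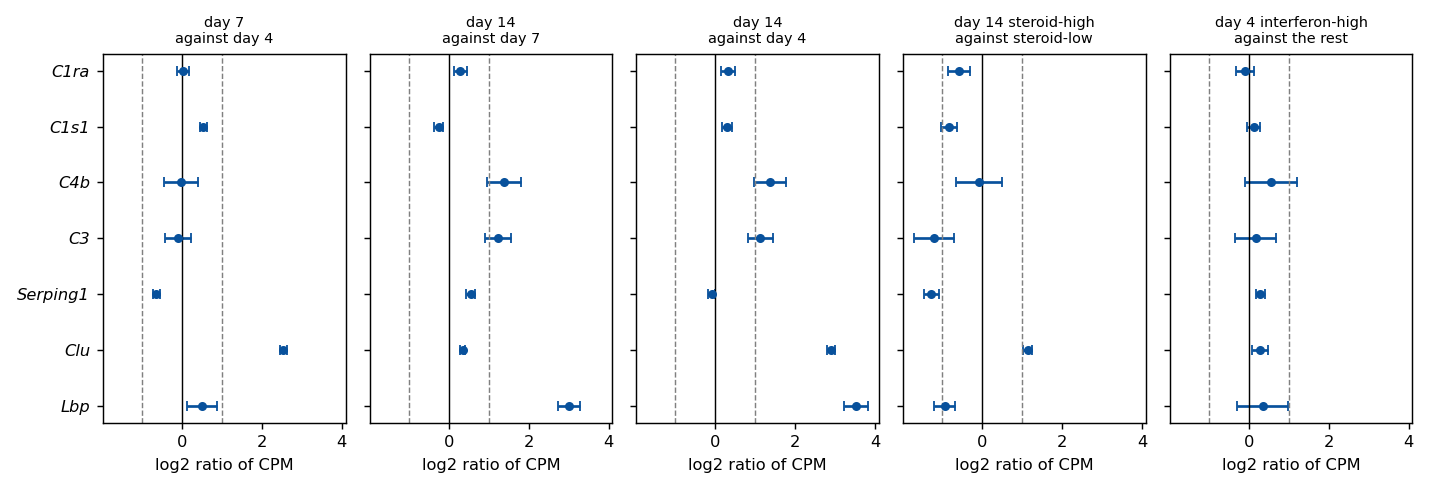
Log2 ratio of CPM (no pseudocount) for the 7 genes with enough counts, in the 3 comparisons of days, in day 14 steroid-high against steroid-low cells and in day 4 interferon-high cells against the rest. Points are ratios of summed UMIs, bars are 95% counting intervals, dashed lines mark 2-fold, and Clu is the only point to the right of 0 in the steroid-high panel (ratio 2.20).

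Thinned shares of cells with a UMI followed the levels for Clu, Serping1, Lbp and C1s1, beyond their counting intervals. A Clu UMI was seen in 29.9% of 435 steroid-low cells (25.6–34.4) and 62.1% of 359 steroid-high cells (56.9–67.2), and a Serping1 UMI in 34.0% (29.6–38.7) and 13.1% (9.78–17.0). For Lbp the shares were 15.6% (12.3–19.4) and 8.08% (5.48–11.4), and for C1s1 29.4% (25.2–34.0) and 19.8% (15.8–24.3). The shares of C1ra were 15.6% (12.3–19.4) and 9.75% (6.89–13.3), lower in steroid-high cells but with intervals that overlap. The shares of C3 (4.37%, 2.65–6.74, and 3.06%, 1.54–5.42) overlapped, and so did those of C4b, which were higher in steroid-high cells (2.99%, 1.60–5.06, and 4.18%, 2.36–6.80). Serping1 in steroid-high cells was uneven, with up to 38 UMIs in a single cell and 64.1% of its UMIs in 10% of the cells. Unthinned shares in steroid-low and steroid-high cells were 49.0 and 76.8% for Clu, 53.7 and 35.6% for Serping1, 31.7 and 23.7% for Lbp, 48.6 and 41.4% for C1s1, 33.5 and 29.7% for C1ra, 10.8 and 8.13% for C3, and 7.03 and 8.61% for C4b.

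Finer steps of the 2 enzymes showed that the genes did not fall in 1 pattern. The steps were cells with no UMI of the enzymes (324 cells), above 0 and under 10 per 10000 (231), 10 to under 50 (179), 50 to under 100 (127) and 100 or more (112), at median depths of 2025, 5177, 3700, 3144 and 4428 UMIs. Serping1 was at 397, 290, 172, 165 and 59.2 CPM along these steps. C1s1 was at 235, 213, 163, 114 and 79.0 CPM, and C1ra at 117, 96.4, 84.2, 63.7 and 55.3. All 3 were lower at each step. Neighbouring steps overlapped within their intervals throughout for C1ra, for Serping1 only from the third to the fourth step, and for C1s1 at all but the second to the third.

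C3 held its level over the first 3 steps and was then low, at 43.6 CPM (31.8–58.3), 43.4 (34.0–54.6), 37.1 (26.7–50.4), 6.50 (2.11–15.2) and 5.27 (1.43–13.5), the last 2 from 5 and 4 UMIs. C4b was at 16.5 CPM (9.59–26.4), 22.9 (16.2–31.4), 29.9 (20.6–42.0), 19.5 (10.9–32.2) and 3.95 (0.815–11.5), so that neighbouring steps overlapped, while the second and the third stood clear of the last, which rests on 3 UMIs. The steroid-high cells thus held both the highest and the lowest C4b level of the 5 steps. Lbp was lowest in the middle step, whose interval overlaps that of the last, at 162 CPM (138–188), 113 (97.1–130), 48.0 (36.0–62.8), 96.2 (75.5–121) and 71.1 (53.4–92.8).

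Clu was at 283 CPM (251–317), 447 (415–480), 761 (710–814), 728 (669–791) and 1083.6 (1010.8–1160.2). It was higher at each step but from the third to the fourth, where the intervals overlap. Over the same steps Insl3, a hormone of Leydig cells, was at 423, 897, 2087.2, 3126.7 and 3859.0 CPM, and Dcn, a matrix proteoglycan of stromal cells, at 1783.6, 1295.1, 593, 482 and 153.

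**Figure D3:**
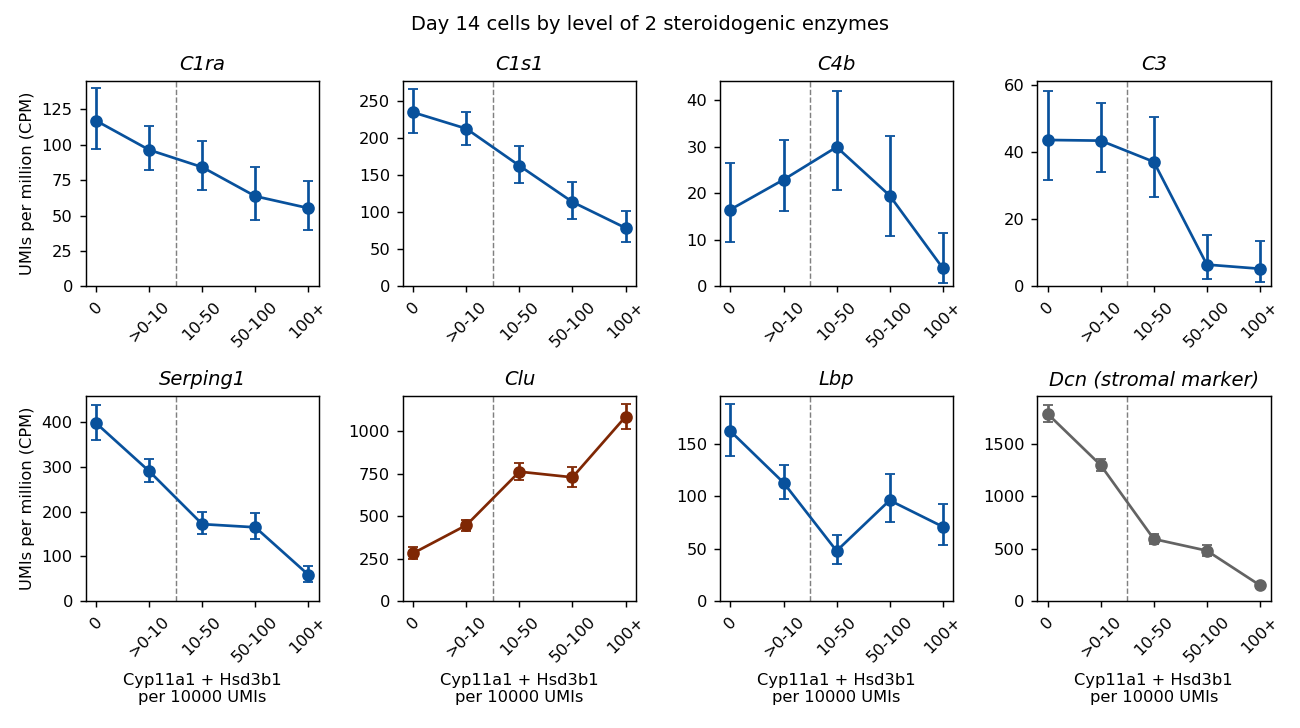
Level in day 14 cells (CPM, own axis from 0 in each panel) along 5 steps of the summed Cyp11a1 and Hsd3b1 count per 10000 UMIs, with exact Poisson 95% intervals and a dashed line at the limit of 10. Clu goes up from 283 to 1083.6 CPM, Serping1 goes down from 397 to 59.2 as the stromal marker Dcn does, and C3 is low only in the last 2 steps.

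The steroid-low cells held more RNA of other kinds. Of the 8 fibroblast and myofibroblast markers 7 passed the filter and 6 were at least 2-fold lower in steroid-high cells, beside 4.63% of 7900 genes. Among them were Dcn (1482.4 CPM in low, 434 in high), Pdgfra (164 and 51.3), Col1a1 (728 and 239) and Acta2 (187 and 4.94). Acta2 and Tagln (56.8 and 0.760) passed only through the steroid-low cells, where they are high. The count is therefore not read as a result. The 12 macrophage markers summed to 469 CPM in steroid-low and 14.8 in steroid-high cells, with Lyz2 at 388 and 7.22, Ptprc at 15 and 0 UMIs, Adgre1 at 8 and 0 and C1qa at 1 and 0. The UMIs of Ptprc lay in 1 cell, and so did those of Adgre1. Without the 7 and 8 cells with a UMI of the 5 macrophage markers named above, the log2 differences were -1.10 for C3 (-1.15 with them), -1.28 for Serping1 (-1.26) and 1.16 for Clu (1.14). Germ cell markers summed to 56.8 and 41.4 CPM, proliferation markers to 112 and 59.6, endothelial markers to 52.8 and 18.6, adipocyte markers to 53.5 and 19.4, and Sertoli markers to 3278.5 and 4827.4. The part of the stromal markers and of these other lists in the lower complement levels was not tested.

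Which transcripts were seen in the same cells was counted in the 794 thinned cells of day 14, as a description over cells of 1 library at equal depth. Serping1 and Clu were seen together in 62 cells, where the product of their shares gives 86.7 (odds ratio 0.493). Serping1 and Lbp were together in 38 cells (product 23.8, odds ratio 2.22), and C1s1 and C1ra in 34 (25.8, 1.57). C3 was with C1s1 in 15 cells (7.52, 3.15) and with Lbp in 9 (3.66, 3.29). Clu and Lbp, both higher on day 14, were together in 34 cells (43.1, 0.639). Clu lay below the product of shares with C1ra (odds ratio 0.634), C3 (0.714) and C1s1 (0.838) as well, and the other pairs above lay over it.

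The interferon response was looked at because Serping1 is a known interferon-responsive gene. On day 4, 745 cells in the top 25% by 20 summed interferon-stimulated genes per 10000 UMIs were set against the other 2235. At 2-fold, 0 of the 5 genes that passed the filter were higher and 0 lower, beside 0.255% and 0.306% of 7854 genes. With 1 library no test was run, and no unadjusted p or count by another tool can be given. Serping1 was 1.22 times higher in interferon-high cells (1.13–1.32), Clu 1.21 times (1.05–1.39) and C1s1 1.09 times, while C1ra was at 0.938. For Serping1 the log2 difference was 0.40 with the top 10% of cells and 0.21 with the top 50%, and for Clu it turned to -0.27 and -0.13. With cells thinned to equal depth it was 0.02 for Serping1, whose thinned shares overlapped (31.7%, 27.7–35.9, and 29.4%, 27.2–31.6), and with the same split on day 7 it was 0.12. The interferon-high cells were shallower (median 2546 against 3031 UMIs). Their germ cell transcripts summed to 31.3 against 169 CPM and their macrophage transcripts to 38.1 against 5.94, whose part was not tested. These sums rest on few cells, since all 47 Lyz2 UMIs of the interferon-high cells lay in 1 cell. Prm1 had 40 UMIs in 37 interferon-high cells (4.97%) and 649 in 91 others (4.07%). Tnp1 had 8 in 8 (1.07%) and 399 in 45 (2.01%). Over days, 17 of 19 interferon-stimulated genes were at least 2-fold lower on day 7 than on day 4, beside 2.07% of 8086 genes. On day 14, 16 of 18 were lower than on day 4, beside 14.9% of 8139 genes. The median log2 differences were -2.48 and -3.46. Some of these genes, such as Irf7 (73.2 CPM on day 4 and 5.42 on day 7), passed the filter only through day 4, where they are high. The counts are therefore not read as a result. Serping1 differed from day 4 by -0.64 on day 7 and by -0.09 on day 14.

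Other complement genes showed where the cascade was and was not transcribed. In the classical list of 10 genes, C1qa, C1qb and C1qc, which encode the recognition subunit of C1, had at most 9 UMIs each on any day. C2, which joins C4 in the C3-cleaving enzyme, was at 66.3, 57.4 and 112 CPM on days 4, 7 and 14, and at 121 and 102 CPM in steroid-low and steroid-high cells. Of the 4 classical genes that passed on day 14 (C1ra, C1s1, C2 and C4b), 1 (C4b) was at least 2-fold higher than on day 7, beside 8.85% of 8227 genes. Because C4b passed only through day 14, this count is not read as a result. Between steroid-high and steroid-low cells 0 of the 4 were 2-fold apart, beside 2.71% of 7900 genes higher and 4.63% lower. Of the 6 listed lectin genes only Colec12, a scavenger receptor of the collectin family, reached the filter in these comparisons, at 127, 129 and 126 CPM on days 4, 7 and 14. Within day 14 it was at 190 CPM in steroid-low and 60.4 in steroid-high cells, a ratio of 0.317 (0.264–0.380). A second collectin, Colec11, reached 10.3 CPM in the interferon-high cells of day 4, and was at 7.26, 1.03 and 5.63 CPM on the 3 days. In the list for the alternative route and C3, C3 alone of the 3 listed genes passed the filter.

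The terminal genes C6 and C7, whose products join the pore, had the largest differences among the complement genes named. C6 was at 0.868, 1.46 and 93.3 CPM on days 4, 7 and 14, the first 2 from 11 and 17 UMIs, and day 14 was 63.8 times day 7 (39.5–110). C7 was at 4.26, 11 and 251 CPM, and day 14 was 22.8 times day 7 (19.0–27.6). Of the 6 terminal genes listed, C6 and C7 alone passed the filter, and since C6 passed it only through day 14, where it is high, no count of higher genes is read from this list. In steroid-high cells C6 was at 131 CPM against 56.1 in steroid-low cells, a ratio of 2.34 (1.93–2.85), and C7 at 284 against 219, a ratio of 1.30 (1.16–1.45). Only C6 passed 2-fold. Along the 5 steps of the enzymes C6 was at 39.7, 66.3, 159, 112 and 111 CPM and C7 at 184, 241, 293, 270 and 287, and so neither was higher after the third step.

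The membrane regulators were present throughout. Cd59a, which blocks the pore on the cell's own membrane, was at 369, 370 and 353 CPM on days 4, 7 and 14, and Cr1l, which encodes a membrane regulator of C3 and C4 fragments, at 101, 103 and 118. Cd55, which speeds the decay of the C3-cleaving enzymes, was at 14.2, 9.20 and 42.3 CPM, with day 14 at 4.59 times day 7 (3.63–5.84). Across the day 14 split Cd55 was at 40.9 CPM in steroid-low and 43.7 in steroid-high cells, Cr1l at 119 and 117 and Cd59a at 333 and 373, so none of the 3 was 2-fold apart there. None of the 7 listed complement receptor genes reached 10 CPM in the groups compared.

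**Figure D4:**
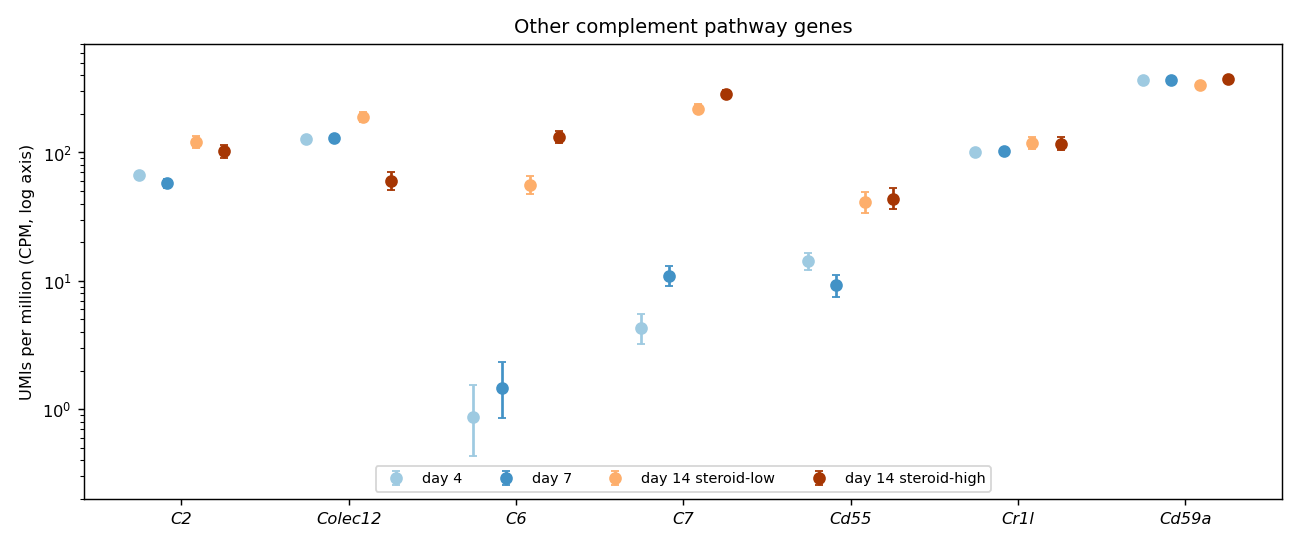
Level of 7 further complement genes (CPM, log axis) on day 4, on day 7 and in steroid-low and steroid-high cells of day 14, with exact Poisson 95% intervals. C6 and C7 stand near or under 11 CPM on days 4 and 7 and far above it on day 14, Colec12 is lower in steroid-high (60.4 CPM) than in steroid-low cells (190 CPM), and Cd59a and Cr1l are nearly level.

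The partners of Lbp in the recognition of lipopolysaccharide did not share its course. Ly96, the co-receptor that binds lipopolysaccharide, was at 22.3, 29.3 and 33.1 CPM on days 4, 7 and 14, and Myd88, the adaptor of the receptor, at 16.7, 13.8 and 18.8. Tlr4, the receptor itself, was at 7.81, 11.3 and 3.76 CPM, and so was lower on day 14 than on day 7 (ratio 0.333, 0.197–0.536). Cd14, which takes lipopolysaccharide from the Lbp product, was under the level for naming by the rule, and is given for its role, at 1.81, 1.46 and 3.38 CPM. Of the 3 genes of this list that passed the filter on day 14 against day 7, Lbp was the 1 that was 2-fold higher, beside 8.85% of 8227 genes. In steroid-high against steroid-low cells Ly96 was at 25.4 CPM (19.7–32.3) against 40.5 (33.3–48.9). Myd88 was at 17.9 (13.1–23.7) against 19.7 (14.8–25.8), which overlap.

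For each gene the nearest patterns over 4 groups (days 4 and 7 and both day 14 groups) were sought among 8208 genes, by distance between centred log2(CPM + 1) values. The smaller the distance, the more alike are the patterns, and with 4 groups many genes come close by number alone. The nearest were Fmnl2 and Adamts5 for C3 (0.18 each), BC029214 (0.03) and Slc45a4 (0.05) for C4b, Atp7a (0.06) and Rad51d (0.11) for C1s1, and Phc3 and Aldh3a2 for C1ra (0.04 each). For Serping1 they were Stard8 and Igfbp6 (0.18 each), and for Lbp Tmem108 (0.38) and Rgs2 (0.41). Clu stood farthest from any other gene, with Gnpda1 at 0.87 and Efhd1 at 0.92. Adamts5, for example, was at 178 and 168 CPM on days 4 and 7 and at 601 and 234 in steroid-low and steroid-high cells, and Efhd1 at 8.12, 20.9, 30.1 and 70.3. Cfb was too low for its neighbours (Ddx18 at 0.06 and Fam13b at 0.07) to be read.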

How the data were processed

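Drop-seq libraries of days 4, 7 and 14 were read. The authors aligned reads to GRCm38 with STAR (2.5.2a in the submitters' processing notes, another version in the methods), counted UMIs with Drop-seq tools and merged the cells that had 500 or more genes and no more than 10% mitochondrial UMIs. The deposited values are raw UMI counts. Of the merged table, 6124 columns were used and 495 columns of no sample were not. Its entries equalled those of the tables per day (0 differed).

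UMIs were summed per group and scaled to 1000000. Poisson and Clopper-Pearson intervals (95%) cover counting error only. Log2 differences used a pseudocount of 1 CPM, a mean of at least 10 CPM and a 2-fold limit. Thinning to 1500 UMIs (seed 1) left out 753, 429 and 179 cells. Named genes were all members, list genes with at least 10 CPM in a day or day 14 group, the copies C4a, C1rb and C1s2, and the 2 nearest genes per member, and some list genes are not reported here. Members and lists were chosen with earlier results of these data known. Scrublet called 0, 2 and 1 cells as doublets, too few to use, so no doublets were removed, and an alternative left out the 6% of cells with the highest scores. Alternatives changed the cells, weights, scaling, pseudocount, filter, fold and split. Scripts were tested on simulated data. Python 3.11.15, numpy 2.4.6, scipy 1.17.1, pandas 2.3.3, scanpy 1.11.5 and matplotlib 3.10.9 were used.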

Additional observations from a re-analysis of the deposited data

Results flagged for a closer look

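The tables per day held barcodes that the merged table leaves out, and the 8 listed genes were counted in them as well. The 320 such barcodes of day 4 held 98 UMIs of these genes, the 229 of day 7 held 146 and the 327 of day 14 held 154, at median depths of 569, 580 and 319 UMIs per barcode. These barcodes entered no comparison above and were singled out because they carry counts of the same genes.

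Clu in these barcodes was at 43.5 CPM on day 4 (7 UMIs, 17.5–89.7), 476 on day 7 (57 UMIs, 361–617) and 735 on day 14 (91 UMIs, 592–902), beside 82.6, 479 and 612 in the cells used. Serping1 was at 274 CPM (199–367), 184 (115–278) and 137 (80.0–220), beside 251, 161 and 235. Lbp was at 12.4 CPM (1.51–44.9), 33.4 (9.10–85.6) and 121 (67.8–200), from 2, 4 and 15 UMIs, beside 8.83, 12.6 and 100. C3 was at 12.4 CPM (1.51–44.9), 41.8 (13.6–97.5) and 40.4 (13.1–94.2), beside 14.4, 13.4 and 31.4. C4b was at 37.3 CPM (13.7–81.2), 50.1 (18.4–109) and 8.07 (0.204–45), from 6, 6 and 1 UMIs, beside 7.73, 7.65 and 19.9. Clu and Lbp thus had the same order of days in the excluded barcodes as in the cells. The Clu intervals of days 7 and 14 overlapped, however, and so did those of Lbp between neighbouring days. C4b was above its level in the cells on days 4 and 7 and its order of days was another one. The C3 intervals overlapped between all days, and Serping1 on day 14 was below the level in the cells.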

How the results depend on the processing

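Of the counts of genes past the limit, 165 of 178 stayed within 1.5 times the value given, and 13 moved. Of 552 log2 differences 483 moved by less than their counting interval, 69 moved by more, and 0 called ones changed sign. Of 240 levels 199 stayed within their interval, and 24 of 24 shares of cells moved with thinning. The stricter cell filter left 1 gene lower in steroid-high cells (Serping1). A pseudocount of 10 CPM left 1 gene higher on day 14 against day 7 (Lbp), 2 against day 4 (Clu and Lbp) and 1 lower in steroid-high cells (Serping1). A limit of 1.5-fold gave 1 lower on day 7 against day 4 (Serping1) and 4 lower in steroid-high cells (C3, C1s1, Serping1 and Lbp). A limit of 3-fold left 1 higher on day 14 against day 7 (Lbp), 2 against day 4 (Clu and Lbp), and 0 higher and 0 lower in steroid-high cells. With the split at 20 or 50 per 10000, or by Star plus Cyp17a1, 0 were 2-fold higher in steroid-high cells. The cause of these moves was not tested, other than the limits themselves. All genes tested had a median log2 difference of -0.17 on day 14 against day 7 and -0.12 against day 4, and median-of-ratios scaling called the same genes in the 5 comparisons. Removal of macrophage-marker cells, cells with a germ cell marker UMI, the 6% of cells with the most UMIs and day 14 cells near the limit was added after seeing the data. No paired analysis was possible because each day has 1 library and no result comes from a test. Depth limits Cfb on all days and C3 and C4b in the highest steps of the enzymes.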

Other observations

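Other acute-phase and NF-kB-responsive genes did not follow 1 course. Lcn2, which encodes a secreted siderophore-binding protein, was at 2.45, 1.81 and 124 CPM on days 4, 7 and 14. Within day 14 it was at 209 CPM in steroid-high and 40.9 in steroid-low cells, the opposite side to Lbp. Steap4 of the same list was at 3.42 and 35.7 CPM there, the same side as Lbp, and passed the filter only through the steroid-low cells. Saa3, an acute-phase apolipoprotein, was at 1.74, 1.46 and 15.4 CPM on days 4, 7 and 14, and Hp, which encodes haptoglobin, at 0, 0.258 and 10.7. Il6, the cytokine that drives the response in liver, was at 20, 13.4 and 0 CPM, and Ccl2, a chemokine, at 269, 309 and 60.3. Of the 4 genes of this list that passed the filter on day 14 against day 7, 1 was at least 2-fold higher (Lcn2) and 1 lower (Ccl2). Over all 8227 genes 8.85% were higher and 13.0% lower. Lcn2 passed only through day 14, where it is high, so no count of higher genes is read from this list. These genes were named after their values were seen.

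Among receptors for clusterin and lipoproteins, Lrp1 was at 229, 248 and 150 CPM on days 4, 7 and 14 and Lrp8 at 12.1, 16.3 and 4.88. Both were lower on day 14 than on day 7, while Clu itself was higher. Lrp2 had at most 4 UMIs on any day.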
